A study of Mus musculus with 23 samples.

Results

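The genes described here encode secreted and trans-synaptic organisers, proteins that neurons release or display to assemble the synapse from outside the cell. They were taken by name: the cerebellins Cbln1, Cbln2 and Cbln4, the C1q-like genes C1ql1 and C1ql3, the leucine-rich repeat genes Elfn1 and Elfn2, and the neuronal pentraxin genes Nptx1, Nptx2 and Nptxr. These are 10 of the 45706 gene identifiers in the count table, and all 10 passed the filter on low counts that kept 18823 genes. The study compared wild-type (WT) mouse hippocampus with mice carrying a conditional knockout (cKO) of Slm2, the gene listed under the symbol Khdrbs3, which encodes a neuronal splicing regulator. Polyadenylated RNA was sequenced from 3 neuronal populations, named CamK and Grik for excitatory pyramidal cells and SST for somatostatin-positive interneurons. The series text describes the excitatory populations as CA1 and CA3, and a column name gives Grik4 for the Grik population. There were 4 CamK WT, 3 CamK cKO, 4 Grik WT, 4 Grik cKO, 4 SST WT and 4 SST cKO libraries, 23 in all. The age and sex of the animals, the Cre lines, the deleted exons and the way the populations were isolated are not given in the sources used here.

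Cerebellins and C1q-like proteins are small secreted proteins with a C1q domain that form bridges across the synaptic cleft. Cerebellins tie presynaptic neurexins to postsynaptic delta-type glutamate receptors, and CBLN4 also binds the netrin receptors DCC and neogenin. C1QL1 and C1QL3 bind the adhesion receptor BAI3, encoded by Adgrb3, and C1q-like proteins of mossy fibres recruit kainate receptors. ELFN1 and ELFN2 are postsynaptic membrane proteins that bind presynaptic group III metabotropic glutamate receptors in trans, and in the hippocampus ELFN1 is best known for shaping facilitating input onto somatostatin interneurons. The pentraxins NPTX1 and NPTX2 are secreted, and NPTXR is anchored in the membrane. The pentraxins form joint complexes that cluster AMPA receptors, and NPTX2, also called Narp, is induced by neuronal activity.

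The libraries held between 87612006 and 112993538 reads assigned to genes (median 91378465). The targeted gene Khdrbs3, counted over all of its exons, was at 356 to 413 CPM (reads scaled to library size) in CamK WT and 249 to 294 in CamK cKO libraries. It was at 123 to 140 CPM in SST WT and 82.6 to 106 in SST cKO libraries. In Grik the order was the other way, with 327 to 347 CPM in WT and 396 to 439 CPM in cKO libraries, so the Grik group is called the libraries labelled cKO. The edgeR quasi-likelihood test with Benjamini-Hochberg adjustment gave adjusted p-values of 0.114 (CamK), 0.499 (Grik) and 0.0309 (SST) for these genotype differences. The summed excitatory markers (4 of 4 detected) lay between 5390 and 7840 CPM in the CamK and Grik libraries and between 734 and 1040 CPM in SST. The summed GABAergic markers Gad1, Gad2 and Slc32a1 lay between 3730 and 5790 CPM in SST and between 41.2 and 135 CPM in the excitatory populations. Sst itself was uneven in SST, at 1720, 159, 554 and 1560 CPM in WT replicates 1, 2, 3 and 5 and 1010 to 2130 CPM in cKO, and the 4 somatostatin interneuron markers summed to 1090 to 2500 CPM in WT and 1860 to 3020 CPM in cKO. Leaving out SST WT replicate 2 ended no member's call between WT populations. CA1 markers summed to 1010 to 1670 CPM in CamK and 50.5 to 95.7 CPM in Grik, and CA3 markers to 50.2 to 99.8 CPM in CamK and 336 to 437 CPM in Grik. The CA1 list was not specific to CA1 cells, since it summed to 392 to 430 CPM in SST, of which Mpped1 made up 334 CPM in the WT mean. Dentate granule markers, of a cell type that no label names, were present in CamK (135 to 307 CPM) and in Grik (143 to 162 CPM). In these bulk samples, fewer cells of a type and less RNA per cell cannot be told apart.

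The organiser genes separated the 3 populations far more than the 2 genotypes. Elfn1 and Cbln4 were highest in SST, Nptx1, Nptxr and C1ql1 were highest in Grik, and Cbln1, Cbln2, C1ql3 and Nptx2 were highest in CamK. Elfn2 was close to level across the populations. Among WT libraries, 9 of 10 members differed between CamK and Grik at an adjusted p below 0.05, against 42.0% of all genes tested, with 6 higher (20.9% of all genes) and 3 lower (21.1%) in CamK. Between CamK and SST all 10 differed, against 60.1% of all genes, with 7 higher (29.5%) and 3 lower (30.5%) in CamK. Between Grik and SST 9 differed, against 57.3% of all genes, with 7 higher (28.1%) and 2 lower (29.2%) in Grik. The libraries of the populations did not overlap for 9, 10 and 8 members, against 38.3%, 53.9% and 52.3% of all genes. The members' median log2 fold changes were 0.572, 1.92 and 1.21 in these comparisons, against 0.00781, -0.0206 and -0.0263 over all genes. Among the libraries labelled cKO the counts were 9 (35.7% of all genes), 10 (56.4%) and 8 (57.9%).

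**Figure D1:**
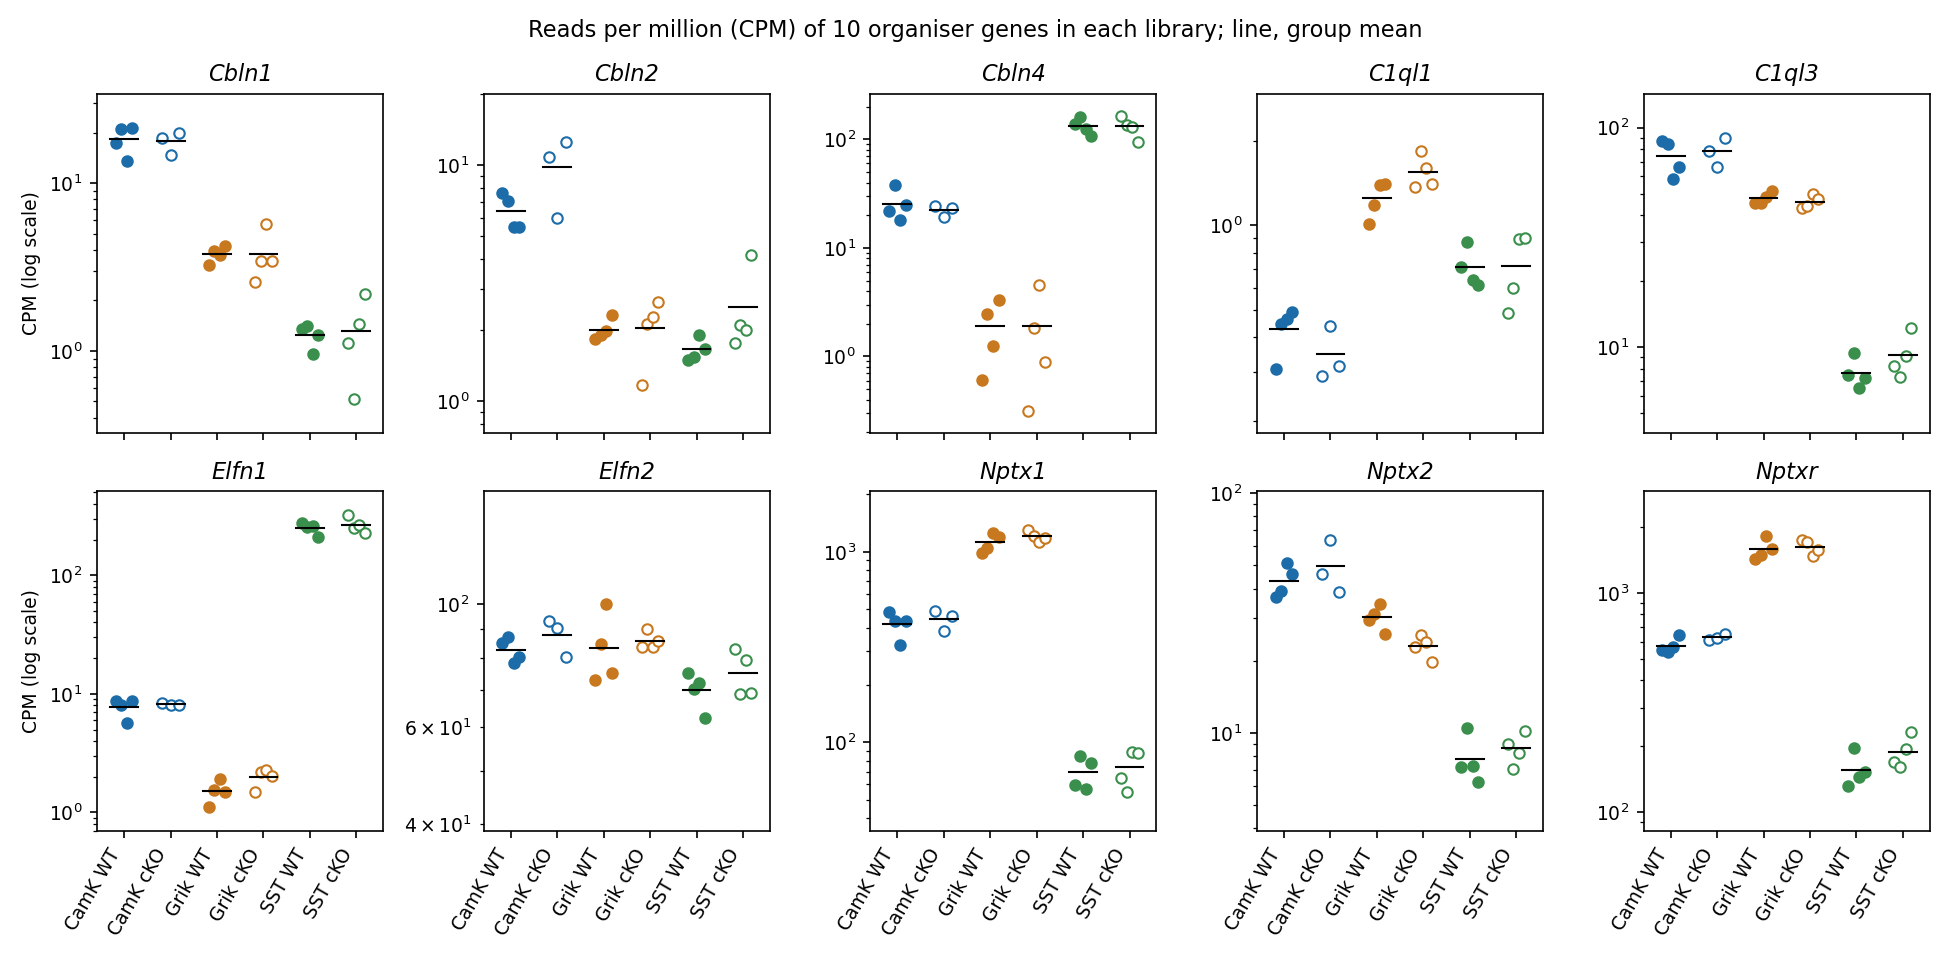
Each panel shows one organiser gene, with CPM on a log axis whose range differs between panels and the 6 groups on the horizontal axis. Filled points are WT libraries, open points libraries labelled cKO, and lines group means. Elfn1 lies between 212 and 320 CPM in SST and at or below 8.75 CPM elsewhere, while the Elfn2 panel covers only 62.3 to 100 CPM.

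Promoters of 4 of the 10 members were found in a RefSeq table (build GRCm38.p6), each running from 250 bases before to 50 bases after the RefSeq start. These 4 are shown because they set Cbln4 and Elfn1, both highest in SST, beside C1ql3, highest in CamK, and Elfn2, near level; no member highest in Grik is among them. Capitals mark matches on either strand to TGACG (the half-site bound by CREB-type factors), TAATTA (a homeodomain core) or GGGCGG (the GC box), and the strand is that of the gene.
Cbln4, chr2:172043417-172043716, minus strand: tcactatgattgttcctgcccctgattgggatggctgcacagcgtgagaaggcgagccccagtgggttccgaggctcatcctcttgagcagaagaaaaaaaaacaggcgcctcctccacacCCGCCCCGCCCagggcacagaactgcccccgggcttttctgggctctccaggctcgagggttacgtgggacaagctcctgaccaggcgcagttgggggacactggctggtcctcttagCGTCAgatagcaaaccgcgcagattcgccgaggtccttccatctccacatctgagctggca
Elfn1, chr5:139907616-139907915, plus strand: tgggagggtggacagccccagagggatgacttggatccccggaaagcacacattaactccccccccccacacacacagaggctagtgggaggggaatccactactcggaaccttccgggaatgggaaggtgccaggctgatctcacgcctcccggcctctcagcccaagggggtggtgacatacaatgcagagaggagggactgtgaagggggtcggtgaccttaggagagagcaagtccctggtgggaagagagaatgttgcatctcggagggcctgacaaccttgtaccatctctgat
C1ql3, chr2:13010815-13011114, minus strand: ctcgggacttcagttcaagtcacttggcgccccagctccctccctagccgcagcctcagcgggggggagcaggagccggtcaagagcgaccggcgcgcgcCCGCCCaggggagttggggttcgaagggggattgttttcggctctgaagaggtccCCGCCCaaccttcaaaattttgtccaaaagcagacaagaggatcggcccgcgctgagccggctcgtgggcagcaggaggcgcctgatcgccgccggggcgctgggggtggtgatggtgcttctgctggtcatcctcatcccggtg
Elfn2, chr15:78718722-78719021, minus strand: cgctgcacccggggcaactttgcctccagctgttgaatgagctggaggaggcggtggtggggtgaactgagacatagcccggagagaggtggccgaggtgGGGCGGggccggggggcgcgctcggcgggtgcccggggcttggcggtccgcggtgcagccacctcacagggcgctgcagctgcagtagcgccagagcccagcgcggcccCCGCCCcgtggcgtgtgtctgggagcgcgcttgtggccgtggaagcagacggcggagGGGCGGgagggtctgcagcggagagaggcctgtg
The Elfn1 window held none of these motifs and no E-box (CANNTG), and was 59.0% G and C. That window ended at 139907915, before the gene span given below begins (139907943), so the annotations place the Elfn1 start differently. The Elfn2 window held 3 GC boxes and 2 E-boxes and was 73.3% G and C. The Cbln4 window held 1 TGACG, 2 E-boxes and 2 GC boxes that overlap by 1 base. The C1ql3 window held 2 GC boxes and 1 E-box. It lay inside the gene span given below (chr2:13003457-13011806), downstream of that span's 5' end, so the 2 annotations place the start differently. Over 32851 promoters of this length, 20.8% held TGACG, 5.29% TAATTA, 72.3% CANNTG and 35.7% GGGCGG. Cbln4 and Elfn1 shared no match to these 4 motifs in their windows.

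Among the postsynaptic adhesion genes, Elfn1 (chr5:139907943-139974722, plus strand, GRCm38) showed the widest separation of all members. Its SST WT libraries held 278, 256, 261 and 212 CPM, and its SST cKO libraries 320, 249, 266 and 228 CPM. CamK WT libraries held 8.75, 8.13, 5.68 and 8.68 CPM and CamK cKO libraries 8.37, 8.11 and 8.05 CPM. Grik WT libraries held 1.12, 1.56, 1.91 and 1.5 CPM and the Grik libraries labelled cKO 1.5, 2.18, 2.28 and 2.02 CPM. No library of one population overlapped with those of another. The WT log2 fold change was -5.01 (SE 0.16, adjusted p 1.8e-17, edgeR) for CamK against SST and -7.37 (SE 0.183, adjusted p 3.02e-19) for Grik against SST, a 165-fold difference. CamK exceeded Grik by 2.36 (SE 0.16, adjusted p 3.58e-11). The Elfn1 level in CamK WT was 3.1% of that in SST WT, beside 2.3% for Gad1, 1.23% for Gad2 and 1.55% for Slc32a1, and in Grik it was 0.606%, beside 1.89%, 0.693% and 0.821%. How much of the low Elfn1 signal in the excitatory populations comes with interneuron RNA was not tested.

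Its paralogue Elfn2 (chr15:78667331-78718771, minus strand) was the most even member. WT libraries measured 78.4 to 87.2 CPM in CamK, 72.8 to 100 CPM in Grik and 62.3 to 75.2 CPM in SST. CamK and Grik did not differ beyond their spread (log2 fold change -0.00818, 95% interval -0.193 to 0.176, adjusted p 0.955 by edgeR). Elfn2 was 0.241 higher in CamK than in SST on the log2 scale (SE 0.0875, adjusted p 0.0202) and 0.25 higher in Grik than in SST (SE 0.0875, adjusted p 0.0174). Both calls were lost without single libraries. For CamK the value was 0.189 without SST WT replicate 5 (adjusted p 0.0804) and 0.221 without CamK WT replicate 3 (0.0536). For Grik it was 0.197 without SST WT replicate 5 (adjusted p 0.0716) and 0.153 without Grik WT replicate 5 (0.12). The CamK call was also lost with the non-neuronal score, a marker score used as covariate (0.308, SE 0.167, adjusted p 0.154, edgeR). The Grik call was lost with the groups fitted alone (0.252, adjusted p 0.0539). Neither value was smaller than before. Each marker list in that score had its lowest WT median in CamK (astrocyte markers 15.2 CPM, against 46.4 in Grik and 53.6 in SST). Fits with this score therefore cannot separate non-neuronal RNA from population. The balance of the pair, as Elfn2 over Elfn1 in CPM per kilobase of exon, had its highest WT median in Grik (27.4), then CamK (5.25), and favoured Elfn1 in SST (0.142). An antisense gene overlaps 266 exonic bases of Elfn2 and held 0 reads, and how reads shared by both genes were counted is not given.

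The group III metabotropic receptors that ELFN proteins bind had their own order. Grm7 averaged 61.4 CPM in Grik WT, 37.3 CPM in CamK WT and 26.9 CPM in SST WT, and was higher in Grik than in CamK (log2 fold change of CamK against Grik -0.718, SE 0.0852, adjusted p 2.26e-07 by edgeR). Grm4 (17.6, 5.38 and 19.8 CPM in CamK, Grik and SST) and Grm8 (8.35, 2.78 and 10 CPM) were lowest in Grik, each with an adjusted p of at most 6.14e-09 against CamK. The low point of Grm4 and Grm8 was thus in the population with the least Elfn1, and Grm7 did not share it.

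Of the cerebellins, Cbln4 (chr2:172036233-172043466, minus strand), the one bound by DCC and neogenin, was highest in SST. Its SST WT libraries held 138, 160, 125 and 108 CPM and its SST cKO libraries 165, 136, 130 and 95.1 CPM. CamK WT libraries held 21.9, 37.8, 18.1 and 24.6 CPM and CamK cKO libraries 24.1, 19.1 and 23.3 CPM. Grik libraries stood lowest and spread most: 0.607, 2.44, 1.24 and 3.3 CPM in WT, and 0.315, 1.83, 4.59 and 0.887 CPM in those labelled cKO. None of the populations overlapped. The WT log2 fold change was -6.13 (SE 0.595, adjusted p 5.31e-08, edgeR) for Grik against SST, 3.75 (SE 0.547, adjusted p 2.08e-05) for CamK against Grik and -2.37 (SE 0.487, adjusted p 0.00037) for CamK against SST. The last of these lost its call with a non-neuronal marker score as covariate (log2 fold change -1.74, adjusted p 0.154). Cbln4 in CamK WT stood at 19.3% of its SST level, while Gad1, Gad2 and Slc32a1 stood at 1.23% to 2.3% of theirs. In Grik WT it stood at 1.43%, within the range of those markers (0.693% to 1.89%), and the part of interneuron RNA in these values was not tested.

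Cbln1 (chr8:87468405-87472609, minus strand), a secreted partner of presynaptic neurexins, followed another order. WT libraries held 13.6 to 21.4 CPM in CamK, 3.24 to 4.21 CPM in Grik and 0.965 to 1.4 CPM in SST, with no overlap. CamK exceeded Grik by 2.28 on the log2 scale (SE 0.28, adjusted p 8.49e-07, edgeR) and SST by 3.89 (SE 0.304, adjusted p 2.56e-10), and Grik exceeded SST by 1.6 (SE 0.289, adjusted p 5.81e-05). Within Grik, Cbln1 and Cbln4 placed the libraries in the same order in each genotype: WT replicates 3, 5, 4 and 6 from low to high, and replicates 1, 4, 2 and 3 of those labelled cKO. The summed CA1 markers gave that order too, at 62, 77.9, 81.8 and 95.7 CPM in WT and 50.5, 66.6, 81.6 and 90.3 CPM in the libraries labelled cKO. So did the summed oligodendrocyte precursor markers, at 9.41, 11.8, 12.5 and 15.1 CPM in WT and 13.2, 15.2, 18.9 and 20.2 CPM in the libraries labelled cKO, and the oligodendrocyte markers in the latter group alone (729, 754, 941 and 1010 CPM). The summed GABAergic markers gave it in WT alone (60.3, 60.7, 72.1 and 81.6 CPM). The part of these other cell types in the Grik values of Cbln1 and Cbln4 was not tested.

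Cbln2 (chr18:86711110-86718283, plus strand) was highest in CamK, at 5.46 to 7.62 CPM in WT, against 1.84 to 2.31 CPM in Grik WT and 1.5 to 1.91 CPM in SST WT. CamK exceeded Grik by 1.67 (SE 0.259, adjusted p 1.2e-05, edgeR) and SST by 1.95 (SE 0.261, adjusted p 6.26e-07) on the log2 scale. Grik and SST overlapped, and their difference was 0.281 (95% interval -0.268 to 0.83, adjusted p 0.373). The fourth cerebellin, Cbln3, was below 1 CPM in every population mean (0.337, 0.262 and 0.764 CPM in CamK, Grik and SST WT).

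Receptors of the cerebellins were detected in all 3 populations. Grid1, the delta receptor of forebrain synapses, averaged 38.1 CPM in SST WT, 54.4 CPM in Grik WT and 68.5 CPM in CamK WT, all 3 pairs differing with adjusted p-values of at most 0.000903 (edgeR). Dcc was highest in Grik (28.8 CPM, against 12.4 in CamK and 12.7 in SST), the population with the least Cbln4, and Neo1 ran from 44.3 CPM in CamK to 59.6 in Grik.

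The C1q-like gene C1ql3 (chr2:13003457-13011806, minus strand) was highest in CamK, lower in Grik and lowest in SST. Its CamK WT libraries held 86.7, 84.6, 58.4 and 66.3 CPM and its CamK cKO libraries 78.6, 65.9 and 89.3 CPM. Grik libraries lay between 43.2 and 51.6 CPM and SST libraries between 6.51 and 12.3 CPM over both genotypes. The 3 populations did not overlap. In WT, CamK exceeded Grik by 0.635 (SE 0.141, adjusted p 0.000816, edgeR) and SST by 3.27 (SE 0.155, adjusted p 1.08e-14), and Grik exceeded SST by 2.64 (SE 0.152, adjusted p 3e-13). With the non-neuronal score the CamK against Grik value was 1.18. C1ql2, its partner in mossy fibres, kept the same order (45.4, 30.2 and 3.45 CPM), and Adgrb3 did likewise at 96.7, 66.8 and 44.3 CPM. Genes on the other strand overlap 1627 exonic bases of C1ql3, and the count files do not say whether strand was used.

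C1ql3 moved with the dentate granule markers Prox1, Dsp and Lct (3 of 3 detected) among the CamK libraries. The summed markers were 307, 236, 135 and 177 CPM in WT replicates 2, 3, 4 and 5 and 227, 155 and 267 CPM in cKO replicates 4, 5 and 6. WT replicate 4 and cKO replicate 5, the lowest in these markers, held the lowest C1ql3 (58.4 and 65.9 CPM), Nptx1 (325 and 384 CPM), Cbln1 (13.6 and 14.7 CPM), Cbln2 (5.46 and 5.98 CPM) and Cbln4 (18.1 and 19.1 CPM) of their groups. The same pair held the highest Nptx2 (51.1 and 63.7 CPM) and the highest summed CA1 markers (1530 and 1670 CPM). The part of granule cell RNA in these values was not tested.

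**Figure D2:**
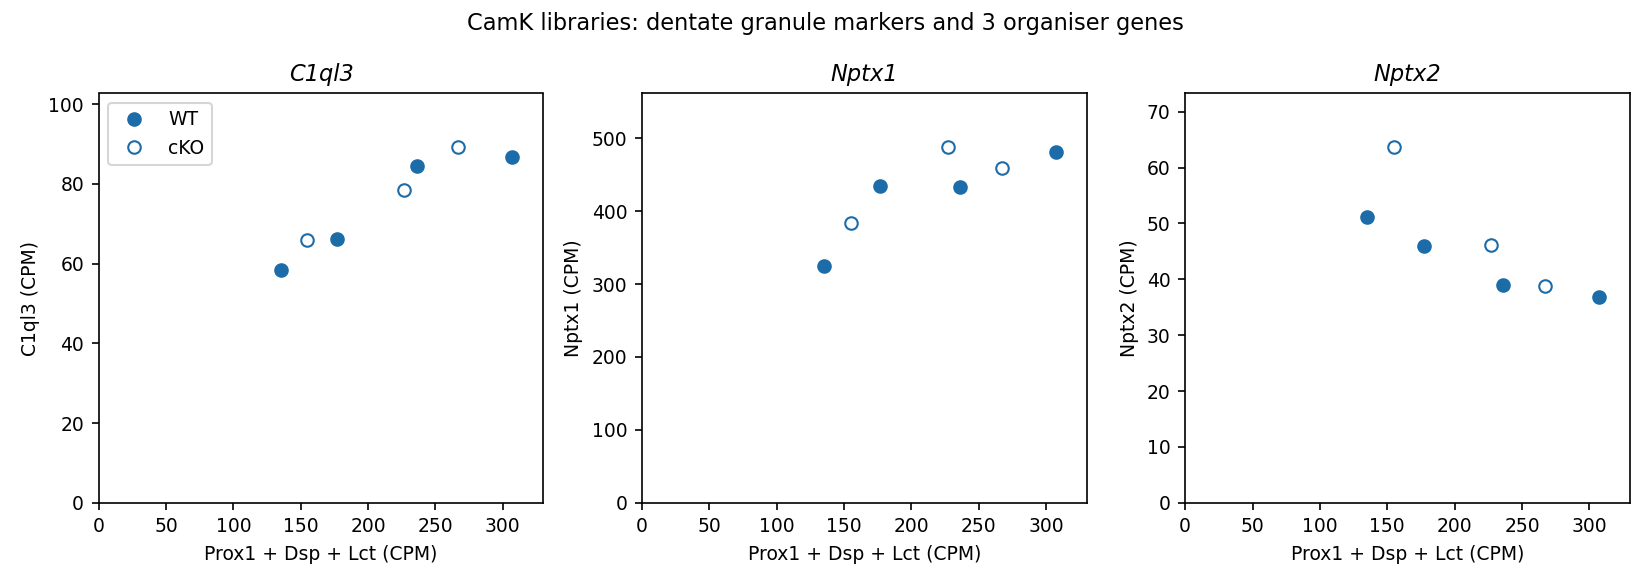
Each panel plots one organiser gene (vertical axis, CPM) against the summed CPM of Prox1, Dsp and Lct (horizontal axis) in the 7 CamK libraries, WT filled and cKO open. C1ql3 runs from 58.4 CPM at a marker sum of 135 CPM to 89.3 CPM at 267 CPM, and Nptx2 runs the other way, from 63.7 CPM at 155 CPM to 36.8 CPM at 307 CPM.

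C1ql1 (chr11:102939264-102946688, minus strand), which acts at climbing fibre synapses of the cerebellum, was the least abundant member per exon length in CamK WT. WT libraries held 0.308 to 0.492 CPM in CamK (28 to 45 reads), 1.01 to 1.41 CPM in Grik and 0.614 to 0.872 CPM in SST. Grik exceeded CamK (log2 fold change of CamK against Grik -1.55, SE 0.234, adjusted p 7.59e-06, edgeR) and SST (0.815, SE 0.225, adjusted p 0.00322), and CamK was below SST (-0.731, SE 0.234, adjusted p 0.00926). The oligodendrocyte precursor markers Pdgfra and Cspg4 (2 of 2 detected) took the same order of populations, with sums of 0.587 to 3.69 CPM in CamK, 9.41 to 20.2 CPM in Grik and 4.64 to 11.4 CPM in SST. With a non-neuronal marker score as covariate the CamK against Grik value was -0.847 (SE 0.347, adjusted p 0.0809, edgeR). The CamK against SST value turned to 0.103 (SE 0.393, adjusted p 0.866). That score itself differed between the populations, so these fits cannot separate it from population.

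Nptxr and Nptx1 were the most abundant members per exon length in both excitatory populations. Nptxr (chr15:79786351-79804766, minus strand), the membrane pentraxin, held 1430, 1500, 1830 and 1600 CPM in Grik WT, 549, 537, 568 and 644 CPM in CamK WT, and 131, 195, 145 and 152 CPM in SST WT. Nptx1 (chr11:119538719-119547753, minus strand), its secreted relative, held 991, 1050, 1260 and 1190 CPM in Grik WT, 481, 433, 325 and 435 CPM in CamK WT, and 59.6, 84.3, 56.8 and 78.1 CPM in SST WT. Both genes stepped down from Grik to CamK to SST without overlap. For Nptxr, Grik exceeded SST by 3.35 on the log2 scale (SE 0.122, adjusted p 3.66e-17, edgeR) and the value for CamK against Grik was -1.47 (SE 0.114, adjusted p 1.9e-10). For Nptx1 the values were 4.01 (SE 0.168, adjusted p 2.98e-15) and -1.42 (SE 0.151, adjusted p 9.04e-08), the latter -0.874 with the non-neuronal score. In SST WT, Nptx1 stood at 6.21% and Nptxr at 9.8% of the Grik WT level, beside 5.32% for Slc17a7, 3.11% for Neurod6, 6.69% for Neurod2 and 15.9% for Camk2a. Against the CamK WT level, Nptx1 stood at 16.7% and Nptxr at 27.1%. The same markers stood at 8.72% (Slc17a7), 4.82% (Neurod6), 7.98% (Neurod2) and 17.9% (Camk2a). The part of excitatory RNA in the SST values was not tested. Npcd overlaps 890 exonic bases of Nptxr on the same strand and held 0 reads. How reads shared by these genes were counted is not given.

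Nptx2 (chr5:144545902-144557478, plus strand), the activity-induced pentraxin, did not follow the other pentraxins. Its CamK WT libraries held 36.8, 39, 51.1 and 45.9 CPM, its Grik WT libraries 29.6, 31.4, 34.6 and 25.9 CPM and its SST WT libraries 7.2, 10.5, 7.3 and 6.24 CPM. CamK was thus highest, and each WT population stood apart from the next. CamK exceeded Grik by 0.508 on the log2 scale (SE 0.158, adjusted p 0.0119, edgeR), or by 0.845 with the non-neuronal score. With replicate number as a block the value was 0.383 and the call was lost (adjusted p 0.0549, edgeR). No label says whether the numbers pair the samples. CamK exceeded SST by 2.47 (SE 0.167, adjusted p 9.96e-12, edgeR), and Grik exceeded SST by 1.96 (SE 0.165, adjusted p 4.42e-10). The ratio of Nptx1 to Nptx2 in CPM per kilobase was likewise highest in Grik, where the WT median was 17 (16.2 to 22.4), beside 5 in CamK (3.09 to 6.36) and 3.96 in SST (3.78 to 6.08). The ratio of Nptx1 to Nptxr moved less, with medians of 0.734, 0.689 and 0.439. Among AMPA receptor genes, Gria4, known to be clustered by pentraxins on interneurons, was highest in SST (195 CPM, against 26.6 in CamK and 16.9 in Grik), as were Gria1 (1360, 840 and 747 CPM) and Gria3 (168, 118 and 114 CPM). Gria2 was lowest there (160, 402 and 419 CPM).

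Set in order of CPM per kilobase of exon, CamK WT ran Nptxr (111), Nptx1 (80.2), C1ql3 (29.2), Nptx2 (17), Elfn2 (10.2), Cbln4 (8.82), Cbln1 (6.05), Cbln2 (2.21), Elfn1 (1.87) and C1ql1 (0.29). Elfn2, Cbln4 and Cbln1 were neighbours whose SDs overlapped, as were Cbln2 and Elfn1. Grik WT had the same first 5 genes, with Nptxr at 307 and Nptx1 at 215 CPM per kilobase and Elfn1 last at 0.365. There the SDs of Nptx2 (12) and Elfn2 (10.3) overlapped, as did those of each neighbouring pair from C1ql1 (0.847) through Cbln2 (0.695) and Cbln4 (0.654) to Elfn1. SST WT opened instead with Elfn1 at 60.3, Cbln4 at 45.7 and Nptxr at 30.1 CPM per kilobase, followed by Nptx1 (13.4) and Elfn2 (8.63). The SDs of Nptx2 (3.08) and C1ql3 (3.03) overlapped there, as did those of the last 3 neighbours, Cbln2 (0.572), C1ql1 (0.482) and Cbln1 (0.409).

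**Figure D3:**
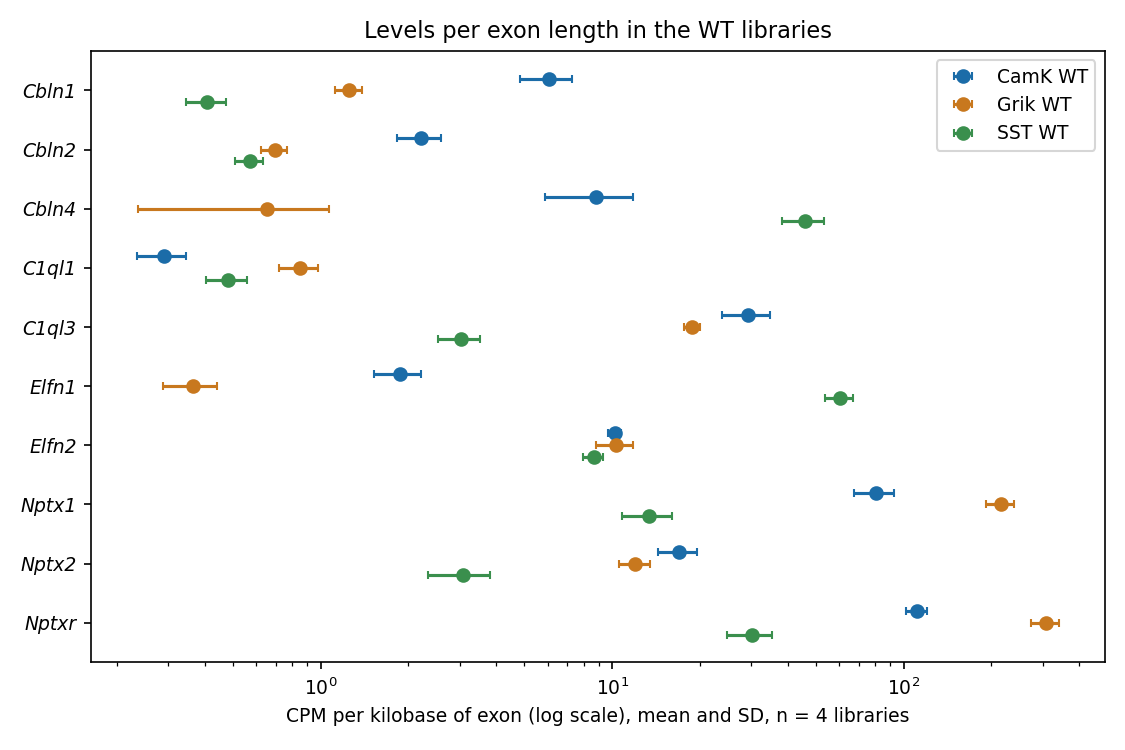
Mean CPM per kilobase of exon (log axis) with the SD over 4 WT libraries for each member and population. Nptxr and Nptx1 lead in Grik at 307 and 215 CPM per kilobase, and Elfn1 spans 0.365 in Grik to 60.3 in SST.

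The genes whose log2 CPM followed each member most closely over the 23 libraries were found among 12965 genes with a mean of at least 1 CPM. Elfn1 was followed by Grip2 (Pearson r 0.997) and Spats2l (0.994), and Cbln4 by Rims3 and Il1rapl2 (0.982 each). C1ql3 was followed by Lct (0.991), itself one of the granule markers above, and Scnn1a (0.989), and Nptx2 by Rgs14 (0.984) and Ext1 (0.98). Rgs14 was read as a CA2 marker, with Amigo2 and Pcp4. Their sums were 190 to 248 CPM in CamK, 114 to 140 CPM in Grik and 18.6 to 30 CPM in SST. Of these genes, Amigo2 was highest in Grik (34.1 CPM in WT, against 4.17 CPM in CamK WT). Nptx1 was followed by Ak4 (0.996) and Ak5 (0.995), and Nptxr by Kcnq5 (0.995) and Rem2 (0.994). Cbln1 was followed by Sec14l3 (0.977) and Vgll4 (0.974), Cbln2 by Usp43 (0.957) and Il17ra (0.949), and C1ql1 by Litaf (0.957) and Lims2 (0.94). Elfn2 had the weakest likeness, with Adgrl1 (0.842) and Pak4 (0.832). The points share 3 populations, so these values mainly describe a shared order of populations.

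The genotype comparison asked whether loss of the splicing regulator goes with changed levels of the organiser genes within a population. By edgeR, 0 of 10 members were called at an adjusted p below 0.05 in CamK, Grik or SST, where 0.0106% of all genes were called in each. DESeq2 and limma-voom also called 0 members. At an unadjusted p below 0.05 the counts were 1 in CamK (7.05% of all genes), 2 in Grik (4.88%) and 2 in SST (5.85%). The members' median log2 fold change was 0.08 in CamK, 0.0302 in Grik and 0.0955 in SST, against -0.00142, 0.00353 and 0.0225 over all genes. The WT libraries and those labelled cKO did not overlap for 0 members in CamK (6.75% of all genes) and 0 in SST (2.7%). In Grik they did not overlap for 1 member (4.59% of all genes), which was Nptx2.

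**Figure D4:**
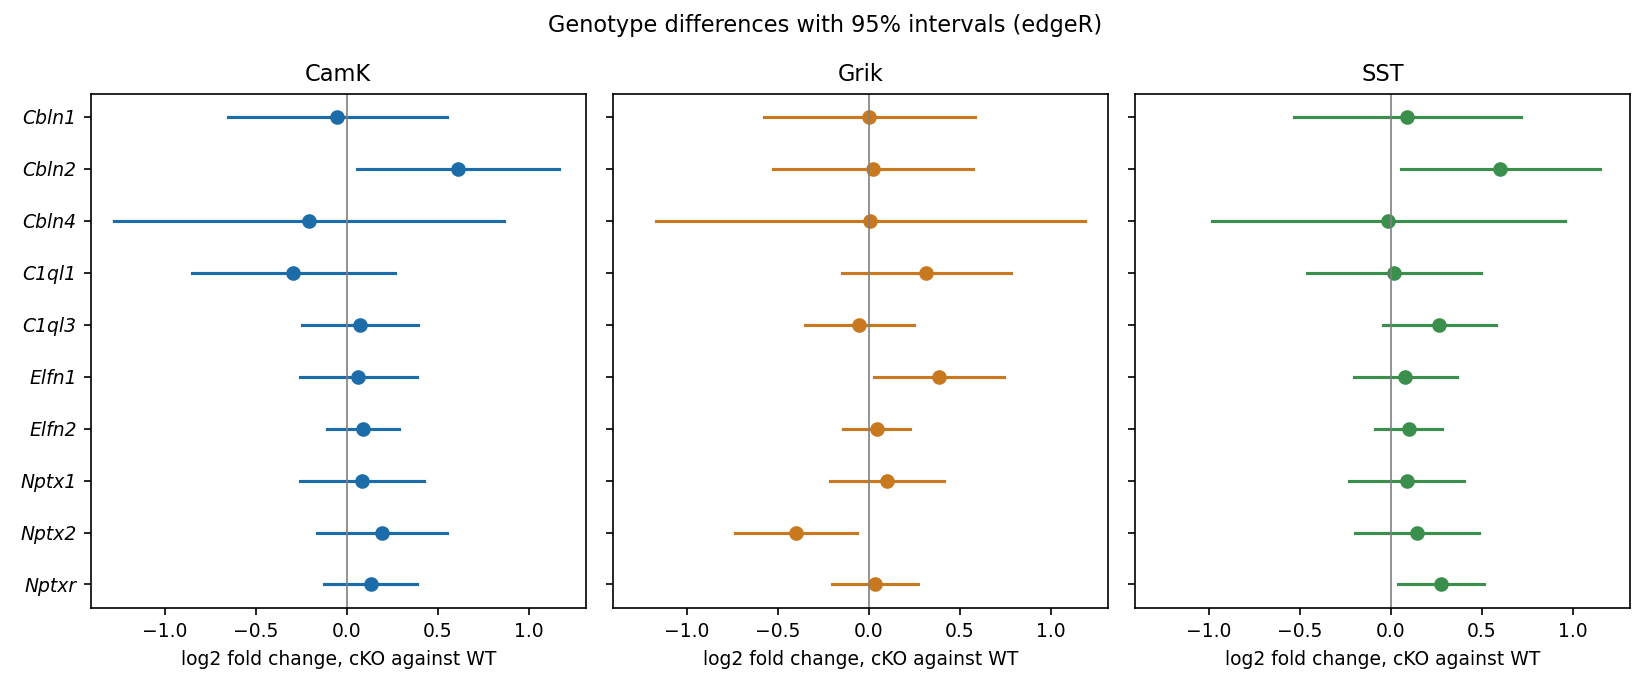
Log2 fold change of the libraries labelled cKO against WT (horizontal axis) for each member in the 3 populations, with 95% intervals from the edgeR fit. The Cbln4 interval is wide (-1.17 to 1.19 in Grik) and the Elfn2 interval narrow (-0.0853 to 0.284 in SST).

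Nptx2 in Grik was the member whose labelled groups stood apart. The Grik libraries labelled cKO held 22.7, 25.7, 24 and 19.8 CPM, all below the WT libraries at 29.6, 31.4, 34.6 and 25.9 CPM, although the highest of them and the lowest WT library nearly met. The log2 fold change was -0.398 (SE 0.158, 95% interval -0.732 to -0.064, unadjusted p 0.0196, adjusted p 0.957 by edgeR). Over the alternatives the adjusted p ran from 0.0985 with limma-voom to 1. The ratio of Nptx1 to Nptx2 per kilobase was 22.8 to 29.1 in these libraries, against 16.2 to 22.4 in WT. In CamK the Nptx2 value was 0.197 (95% interval -0.16 to 0.554), which turned to -0.0254 without CamK cKO replicate 5, and in SST it was 0.144 (-0.198 to 0.486). The CamK effect minus the Grik effect was 0.595 (SE 0.231, unadjusted p 0.0173, adjusted p 0.754), or 0.373 without CamK cKO replicate 5, and Grik minus SST was -0.542 (SE 0.227, adjusted p 1). The differences between populations called 0 members, against 0.00531% of all genes for CamK minus Grik, 0.0% for CamK minus SST and 0.0106% for Grik minus SST. At an unadjusted p below 0.05 they held 1, 0 and 1 members (6.5%, 7.85% and 3.86% of all genes).

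Because Nptx2 is an activity-induced gene, 14 other activity-regulated genes were read beside it, and 0 of 14 were called in any population. In Grik 7 of the 14 had a positive value and 7 a negative one, and 3 had an unadjusted p below 0.05 (4.88% of all genes): Npas4, Nr4a2 and Dusp1. Npas4 had the largest value (1.03, SE 0.467, adjusted p 0.992 by edgeR), with 5.29 to 13.8 CPM in the libraries labelled cKO and 3.43 to 7.65 CPM in WT, which overlap. The libraries did not overlap for 4 of the 14, against 4.59% of all genes: Egr4, Fos, Fosb and Nr4a2 lay higher in the libraries labelled cKO, with log2 fold changes of 0.36, 0.676, 0.875 and 0.615 and adjusted p-values of at least 0.797 (edgeR). Dusp1 (-0.442, adjusted p 0.889), Ier2 (-0.325), Nr4a1 (-0.246), Arc (-0.171) and Bdnf (-0.155) had the sign of Nptx2. The list's median was 0.0332 in Grik, beside 0.00353 over all genes.

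Cbln2 had the largest genotype values in CamK and SST. Its CamK cKO libraries held 10.8, 5.98 and 12.6 CPM against WT libraries at 7.62, 7.04, 5.46 and 5.49 CPM, so the log2 fold change was 0.615 (SE 0.265, 95% interval 0.0563 to 1.17, adjusted p 0.674 by edgeR). The value was 0.872 without cKO replicate 5, the library of its group lowest in granule markers, and 0.394 without cKO replicate 6. In SST the cKO libraries held 1.76, 2.11, 2 and 4.17 CPM against 1.5, 1.54, 1.91 and 1.67 CPM in WT (0.601, SE 0.258, adjusted p 0.833). That value rested on cKO replicate 7 and was 0.24 without it, and it was 0.384 with limma-voom. With replicate number as a block it was 0.0736, and no label says whether the numbers pair the samples. In Grik the value was 0.0246 (95% interval -0.523 to 0.572).

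Nptxr in SST and Elfn1 in Grik were the other members with an unadjusted p below 0.05. The SST cKO libraries of Nptxr held 169, 160, 193 and 232 CPM against 131, 195, 145 and 152 CPM in WT (log2 fold change 0.277, SE 0.112, adjusted p 0.833 by edgeR), and the value was 0.162 without cKO replicate 7. That library also held the highest summed excitatory (1040 CPM), oligodendrocyte (994 CPM) and astrocyte (119 CPM) markers and the lowest GABAergic markers (3730 CPM) of the SST libraries, and their part in the result was not tested. Elfn1 in Grik gave 0.388 (SE 0.169, adjusted p 0.992), with 1 library labelled cKO inside the WT range. In SST, where Elfn1 is abundant, the genotype value was 0.0802 (95% interval -0.202 to 0.362), and for Cbln4 it was -0.0122 (-0.984 to 0.959).

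Of the 24 partner and family genes, 22 were tested and 0 were called between genotypes in any population (edgeR; 0.0106% of all genes in each). At an unadjusted p below 0.05 the counts were 3 in CamK (7.05% of all genes), 1 in Grik (4.88%) and 0 in SST (5.85%). The smallest adjusted p was 0.543, for Grm8 in Grik (log2 fold change -0.611, SE 0.154). Between WT populations, 7 of the 22 partners were higher and 7 lower in CamK than in Grik (42.0% of all genes were called), 8 higher and 8 lower in CamK than in SST (60.1%), and 11 higher and 9 lower in Grik than in SST (57.3%). C1ql4 and Grm6 did not pass the filter on low counts.

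Population differences were also read among the libraries labelled cKO. Elfn1 gave -7.06 for Grik against SST (SE 0.18, beside -7.37 in WT), Cbln4 -6.11 (SE 0.594, beside -6.13) and Nptx1 4.02 (SE 0.168, beside 4.01). Nptx2 differed by 1.1 between CamK and Grik (SE 0.169), beside 0.508 in WT, and the test of that difference is the one given above. Cbln2 between Grik and SST was -0.296 (adjusted p 0.339), which turned to 0.0658 without SST cKO replicate 7, and Elfn2 between Grik and SST was 0.195 (adjusted p 0.0598), so these were the 2 members without a call there. Elfn2 was called at 0.231 for CamK against SST (adjusted p 0.0399, edgeR), and the call ended on leaving out CamK cKO replicate 4 (0.188, with an adjusted p of 0.152), CamK cKO replicate 5 (0.212, 0.105), SST cKO replicate 4 (0.192, 0.105) or SST cKO replicate 7 (0.193, 0.107). By limma-voom it was not called (0.202, with an adjusted p of 0.0602), nor, at larger values, with the groups fitted alone (0.236, 0.0542) or with the non-neuronal score (0.287, 0.149). That score also ended the calls of Cbln4 (-2.05, adjusted p 0.0541) and C1ql1 (-0.336, adjusted p 0.497) for CamK against SST among these libraries. Elfn2 between Grik and SST was called without SST cKO replicate 3 (0.246, adjusted p 0.0285) and with the groups fitted alone (0.205, adjusted p 0.0284).

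**Figure D5:**
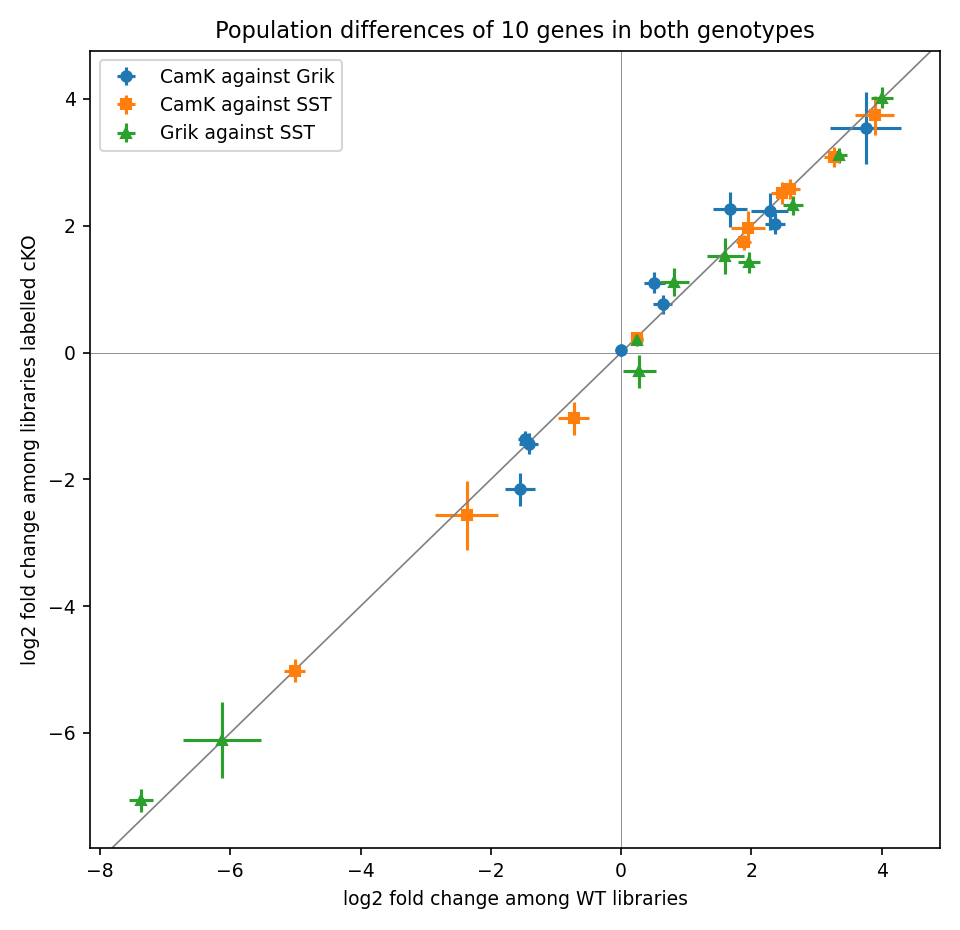
Log2 fold change between populations among WT libraries (horizontal axis) and among libraries labelled cKO (vertical axis) for the 10 members, with SE bars and the line of equality. Points run from Elfn1 in Grik against SST at -7.37 and -7.06 to Nptx1 at 4.01 and 4.02.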

How the data were processed

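Polyadenylated RNA from 23 libraries was analysed from a table of read counts per gene. The authors deposited raw counts, which were whole numbers and not normalized. Reads were handled with Trimmomatic and STAR on GRCm38, per the submitters' processing notes. The count table is titled STAR read counts. Versions and strand setting are not given in the sources used here. The 4 summary rows of reads not assigned to any single gene (together 12.4% to 18.4% of a library) were left out. The organiser genes and the gene lists were chosen with earlier results of these data known.

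Counts were scaled by TMM and tested with edgeR 4.0.16 (R 4.3.3, quasi-likelihood, 6 groups in one fit, 17 residual degrees of freedom), with Benjamini-Hochberg adjustment over 18823 genes and a threshold of 0.05. SE is the absolute log2 fold change over the square root of F. Alternatives were RLE scaling, other filters on low counts, DESeq2 1.42.0, limma 3.58.1 (voom with quality weights), groups fitted alone, a replicate block, marker scores as covariates, and each library left out. All 10 members are named; partners are named where they bind a described member (the values of 1 are not reported here), and likeness is Pearson correlation of log2 CPM. Overlaps come from GENCODE annotation on GRCm38. No label says that replicates are separate animals, so p-values measure only the spread between these samples. The procedure was tested on simulated data.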

Additional observations from a re-analysis of the deposited data

Results flagged for a closer look

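Cbln2 in SST cKO replicate 7 stood apart from its group, at 4.17 CPM against 1.76 to 2.11 CPM in the other 3 libraries, a gap of 0.857 of the group's range. It was the 1 value so marked among 50 combinations of member and group with 4 libraries, where 2.5 would be marked by chance. The same library held the highest excitatory, oligodendrocyte and astrocyte marker sums of the SST libraries, and their part in the value was not tested.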

How the results depend on the processing

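The number of members called did not move by over 1.5 times in any comparison under any alternative run. Of the values for single members, 393 of 395 in the genotype comparisons and 886 of 909 between populations kept their direction and side of the threshold; 42 member values smaller than their own SE were given no direction. Counts over all genes moved more. For cKO against WT in CamK (2 genes) they were 13 with DESeq2, 6 with limma-voom, 1 with the groups fitted alone and 4 with the replicate block. In Grik (2) they were 14, 37 and 5 with DESeq2, limma-voom and groups alone, and in SST (2) 11, 0 and 0, with 1 without the filter and 1 with the non-neuronal score. CamK minus Grik (1) gave 2 with DESeq2 and 0 with the replicate block, CamK minus SST (0) gave 14 with DESeq2, 1 with limma-voom and 1 with the non-neuronal score, and Grik minus SST (2) gave 4 with DESeq2. With the non-neuronal score, WT CamK against Grik gave 4442 (7912) and CamK against SST 7378 (11305). That score differed between the populations, so its fits cannot separate it from population. Leaving out 1 library gave 1 to 4 genes in CamK, 1 to 9 in Grik, 0 to 2 in SST, 0 to 2 for CamK minus Grik and 0 to 1 for CamK minus SST. Direction turned for C1ql1 in WT CamK against SST (0.103 with the non-neuronal score). It turned for Nptx2 in CamK without cKO replicate 5 (-0.0254, range -0.0254 to 0.346). Cbln2 turned with the replicate block, to 0.11 for Grik minus SST and 0.112 for Grik against SST among the libraries labelled cKO. The latter Cbln2 comparison also turned without SST cKO replicate 7 (0.0658, range -0.434 to 0.0658). The replicate block also took Nptx2 in WT CamK against Grik to 0.383 (adjusted p 0.0549, edgeR) and Cbln2 in SST cKO against WT to 0.0736. Same-numbered libraries correlated between -0.0813 and 0.102, over at most 3 pairs in a comparison, too few to decide whether the numbers pair the samples. No label says whether they do. The dentate score, added after the data were seen, left Nptx2 in CamK at 0.207 and Cbln2 at 0.542. The cause of these moves was not tested. The 95% intervals for Cbln4 genotype effects reach past 1 log2 unit in CamK (-1.28 to 0.864) and Grik (-1.17 to 1.19).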
